A study of Mus musculus with 9 samples.

Results

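Expression of 9 genes that mark oligodendrocytes and their precursors was followed in the mediobasal hypothalamus of adult mice after viral delivery of Cre or GFP. The genes were Mbp, Mobp, Mal, Cnp, Mag, Mog and Cldn11, which mature myelinating cells use, Olig1, a transcription factor of the lineage, and Pdgfra, a marker of precursors. They were chosen by name, with earlier results of these data known. All 9 were found among the 13588 entries of the deposited expression table, of which 13446 could be matched to a gene symbol. Male mice homozygous for a floxed Snord116 allele (B6(Cg)-Snord116tm1Uta/J, on C57/BL6) were injected bilaterally at 10 to 12 weeks of age, and brains were taken 10 weeks later. AAV-GFP mice (n = 3) received an AAV7 vector with GFP under the CMV promoter. AAV-Cre mice (n = 6) received an AAV7 vector with Cre under the CAG promoter and carried either an obese (n = 3) or a nonobese (n = 3) weight label. The groups therefore differed in promoter as well as in transgene, the vector titre given in the methods was higher for Cre than for GFP, neither promoter is restricted to a cell type, and every group carried the floxed allele. The titles of the AAV-Cre samples contradict their weight labels, since the titles that hold the word obese carry the nonobese label, and groups are named here by the weight label. Each library came from a different mouse and from 500 pg of RNA of a single laser-captured region, placed by Cre staining of adjacent sections in AAV-Cre mice and matched by position in AAV-GFP mice.

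Oligodendrocytes wrap axons in myelin, a compacted stack of membrane that insulates the axon and speeds conduction, and they supply the axon with metabolites. They arise from proliferating precursors that carry the PDGF receptor alpha and persist throughout the adult brain, including the hypothalamus, where new oligodendrocytes form in adult life. During differentiation Pdgfra is switched off, and the genes of the myelin sheath are switched on together under lineage transcription factors such as those of the OLIG and SOX families.

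The values are signal, reads per gene scaled by library size, from 3929672 to 5766994 reads per library. A floor of 3 reads corresponded to a signal of 0.525 to 0.786 and covers counting error only. The deleted Snord116 cluster has no entry. Cre had 0 to 5 reads in AAV-GFP libraries and 1011 to 37704 in AAV-Cre libraries, and GFP had 317 to 350 and 0 reads in the same order. Replicates 1 and 3 labelled obese stood apart. They had the lowest Cre counts among AAV-Cre mice (5912 and 1011 reads), and their summed signal of 4 leukocyte genes (Ptprc, Cd3e, Cd8a and Cd74) was 1180 and 1268, against 13.2 in replicate 2 labelled obese and 3.63 to 14.3 in the other libraries. Nr5a1, a marker of the ventromedial nucleus, had 0 reads in 4 libraries, namely AAV-GFP replicate 3, replicates 1 and 3 labelled obese and replicate 3 labelled nonobese, and a signal of 15.2 to 46.1 in the other 5, so the captured regions were not alike in their neurons. The part of these differences in the results below was not tested. The limma calls of named genes other than the members are given with and without those libraries. In bulk tissue, fewer oligodendrocytes and less RNA per oligodendrocyte cannot be told apart.

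RefSeq promoter windows of GRCm38.p6, from 250 bases before to 50 bases after a transcript start, were given for 7 of the 9 genes, in 9 windows. Each was searched for ACAAAG on either strand, the core that SOX factors can bind, and for the palindrome CANNTG, the E-box that OLIG factors can bind. ACAAAG was found 6 times in the window of Mobp, once in that of Cnp and once in 2 of the 3 windows of Mag, and not in those of Mal, Cldn11, Mog and Pdgfra. Of 32851 promoter windows of all genes, 18.71% held it. CANNTG, which 72.31% of windows held, was found in the windows of Pdgfra, Mag and Cnp. Mbp, Mobp and Cldn11 had an unadjusted limma p under 0.05 between the AAV-Cre groups, and Mbp has no window here. The windows of Mobp and Cldn11 are shown for that reason, and that of Pdgfra because it is the precursor marker. They lie at chr9:120149492-120149791, chr3:31149670-31149969 and chr5:75152001-75152300, all on the plus strand, and read 5′ to 3′ with ACAAAG or its reverse complement in capitals.
Mobp: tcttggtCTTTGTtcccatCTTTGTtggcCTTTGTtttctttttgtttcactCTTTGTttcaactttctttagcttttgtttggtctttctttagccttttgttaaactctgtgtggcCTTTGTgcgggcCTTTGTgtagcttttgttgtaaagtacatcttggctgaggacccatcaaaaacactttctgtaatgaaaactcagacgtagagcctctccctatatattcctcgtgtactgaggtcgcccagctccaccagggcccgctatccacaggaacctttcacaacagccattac
Cldn11: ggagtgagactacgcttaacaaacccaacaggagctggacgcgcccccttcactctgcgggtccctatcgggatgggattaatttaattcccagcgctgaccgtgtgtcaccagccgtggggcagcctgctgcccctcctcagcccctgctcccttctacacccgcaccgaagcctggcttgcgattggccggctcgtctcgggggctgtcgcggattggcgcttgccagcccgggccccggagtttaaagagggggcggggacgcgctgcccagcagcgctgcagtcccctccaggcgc
Pdgfra: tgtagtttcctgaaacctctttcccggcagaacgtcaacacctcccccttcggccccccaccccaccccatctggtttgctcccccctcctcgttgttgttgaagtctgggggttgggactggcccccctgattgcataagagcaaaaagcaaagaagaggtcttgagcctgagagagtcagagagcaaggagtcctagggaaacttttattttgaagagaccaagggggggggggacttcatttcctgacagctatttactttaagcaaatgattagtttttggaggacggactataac
The 6 matches of Mobp all read as the reverse complement on this strand. A match of letters does not show that a factor binds there, and the absence of a match says only that these letters are not in the window.

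Per kilobase of annotated exon, the members spanned several levels in AAV-GFP mice. Mbp was highest, with a mean signal of 48.8 ± 13.5 per kb (SD, n = 3). Cnp, Mobp and Mal followed at 26.2 ± 4.67, 25.6 ± 6.52 and 23.9 ± 14.1 per kb. Olig1 had 18.6 ± 5.91 per kb, and Cldn11, Mog, Mag and Pdgfra had 11.5 ± 2.95, 9.24 ± 3.25, 8.71 ± 3.48 and 7.12 ± 0.404 per kb. Between neighbours in this order, the gaps from Mbp to Cnp and from Olig1 to Cldn11 were larger than the SD of either gene, and the other gaps were not larger than both SDs. Exon lengths joined all annotated transcripts of a gene, which lowers the per-kilobase level of genes with long rare exons.

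**Figure D1:**
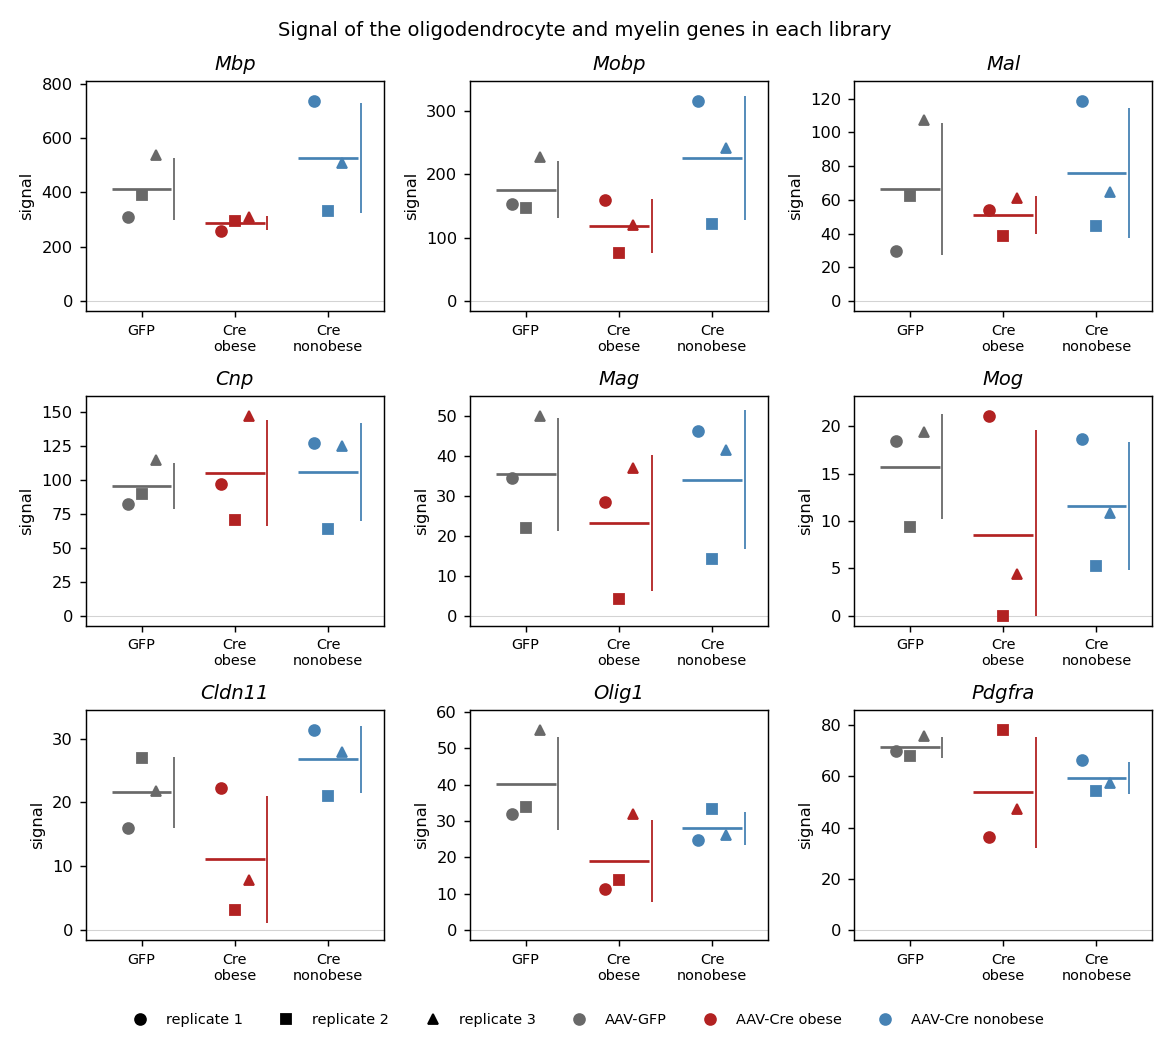
Signal of each gene (vertical axis, linear) in each library, by group on the horizontal axis. Points are mice, shaped by replicate number, horizontal lines are group means and vertical lines 1 SD either side of the mean (n = 3), drawn no lower than 0. Mbp was lower in every mouse labelled obese (259 to 309) than in any other mouse, while Cnp, Mal and Mag overlapped between groups.

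Mbp (ENSMUSG00000041607, chromosome 18 from 82475146 to 82585637 of GRCm38, plus strand) encodes myelin basic protein, which holds the cytoplasmic faces of the myelin membrane together. AAV-GFP mice had a signal of 311, 392.4 and 537. Signal was 259, 294 and 309 with the obese label, and mice labelled nonobese 737, 333 and 508. Every mouse labelled obese was below every other mouse, and the 3 values lay close together, although replicate 3 labelled obese (308.8) and AAV-GFP replicate 1 (311.2) were nearly level. The log2 fold change (log2 FC, on the scale of signal + 1) of mice labelled obese versus AAV-GFP was -0.49 (SE 0.22, 95% confidence interval -0.94 to -0.04), with a limma FDR of 0.450 and an unadjusted limma p of 0.0340. Mice labelled nonobese versus obese had a log2 FC of 0.80 (SE 0.22, interval 0.35 to 1.25, limma FDR 0.111). The exact 2-sided permutation p was 0.1 for each of these, the smallest that 3 mice against 3 can give. For nonobese versus AAV-GFP the log2 FC was 0.31 (interval -0.14 to 0.76), less than the SD among AAV-GFP mice (0.39 on this scale).

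Mobp (ENSMUSG00000032517, chromosome 9 from 120149707 to 120181484, plus strand) encodes a small basic protein of compact central myelin. Signal was 153, 146 and 227 in AAV-GFP mice, 159, 74.9 and 119 in mice labelled obese, and 315, 121 and 241 in mice labelled nonobese. The groups overlapped, with replicate 2 labelled obese lowest and replicate 1 labelled nonobese highest of all 9. The log2 FC was -0.60 in mice labelled obese versus AAV-GFP (SE 0.29, limma FDR 0.488) and 0.89 in nonobese versus obese (SE 0.29, limma FDR 0.194). Its exons overlap those of Gm38642 on the same strand, a transcript that is not in the table.

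Cldn11 (ENSMUSG00000037625, chromosome 3 from 31149920 to 31164324, plus strand) encodes claudin 11, which forms the tight junctions between myelin layers. Signal was 15.96, 27.0 and 21.8 in AAV-GFP mice, 22.3, 3.18 and 7.90 in mice labelled obese, and 31.3, 21.0 and 27.95 in mice labelled nonobese. Replicates 2 and 3 labelled obese, with 14 and 34 reads, were below all other mice, whereas replicate 1 labelled obese was within the range of both other groups. Of the members it had the largest log2 FC between AAV-Cre groups, 1.52 for nonobese versus obese (SE 0.54, interval 0.41 to 2.64, limma FDR 0.250). The log2 FC of obese versus AAV-GFP was -1.21 (SE 0.54, limma FDR 0.451).

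Mag (ENSMUSG00000036634, chromosome 7 from 30899176 to 30914873, minus strand) encodes myelin-associated glycoprotein, which sits on the innermost myelin layer and faces the axon. Its signal was 34.4, 21.8 and 50.1 in AAV-GFP mice, 28.3, 4.08 and 36.9 in mice labelled obese, and 46.4, 14.1 and 41.6 in mice labelled nonobese. Replicate 2 was the lowest mouse of each group. No comparison exceeded the spread, with a log2 FC of -0.96 (interval -2.14 to 0.23) for obese versus AAV-GFP and 0.81 (interval -0.37 to 1.997) for nonobese versus obese.

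Mog (ENSMUSG00000076439, chromosome 17 from 37010743 to 37023398, minus strand) encodes a glycoprotein of the outermost myelin surface and is among the last of these genes to be switched on. It had 74, 49 and 100 reads in AAV-GFP mice (signal 18.5, 9.38 and 19.4), 94, 0 and 19 with the obese label (21.1, 0 and 4.41), and 107, 20 and 51 reads in mice labelled nonobese (18.7, 5.24 and 10.9). The count of 0 allows a signal of up to 0.681. Mice labelled obese thus held both the highest and the lowest Mog signal of all 9. The log2 FC versus AAV-GFP was -1.70 (SE 0.82, interval -3.39 to -0.01, limma FDR 0.501).

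Mal and Cnp did not separate the groups. Mal (ENSMUSG00000027375, chromosome 2 from 127633226 to 127656695, minus strand), a proteolipid of myelin membrane sorting, had a signal of 29.4, 62.4 and 107 in AAV-GFP mice, 53.8, 38.6 and 60.9 in mice labelled obese, and 119, 44.3 and 64.7 in mice labelled nonobese. All AAV-Cre mice except replicate 1 labelled nonobese were inside the AAV-GFP range. Cnp (ENSMUSG00000006782, chromosome 11 from 100574904 to 100591729, plus strand), an enzyme of uncompacted myelin, had 82.0, 89.2 and 114 in AAV-GFP mice, 96.7, 70.6 and 147 in mice labelled obese, and 127, 63.6 and 125 in mice labelled nonobese. The difference between AAV-Cre groups was 0.00 for Cnp on the log2 scale, with an interval of -0.57 to 0.58. The exons of Cnp overlap those of Dnajc7 on the opposite strand. Libraries were made with a stranded kit, but the strand setting of the counting is not given in the sources used here, so its reads are uncertain.

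**Figure D2:**
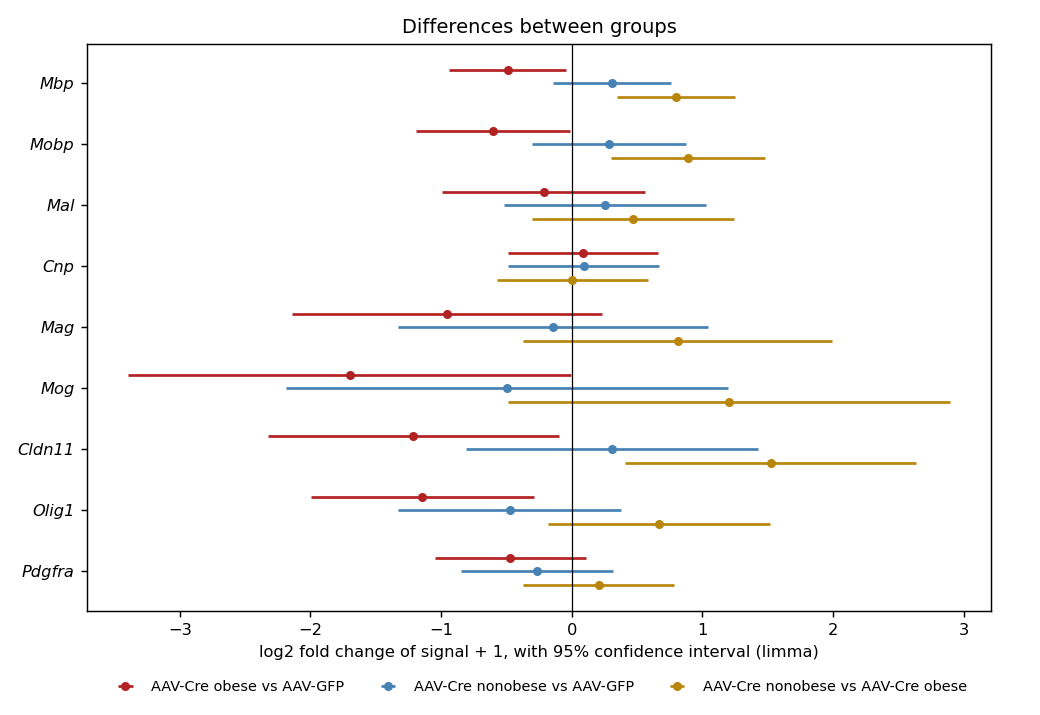
Log2 fold change of signal + 1 (horizontal axis) for each gene in the comparisons of each AAV-Cre group with AAV-GFP and of the AAV-Cre groups with each other. Points are limma estimates and bars 95% confidence intervals. Mbp, Mobp and Cldn11 have intervals below 0 for obese versus AAV-GFP and above 0 for nonobese versus obese, and the intervals of all 9 genes include 0 for nonobese versus AAV-GFP.

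Olig1 (ENSMUSG00000046160, chromosome 16 from 91269772 to 91271933, plus strand) encodes a basic helix-loop-helix factor of precursors and oligodendrocytes. Its signal was 31.9, 33.9 and 55.0 in AAV-GFP mice, 11.2, 13.8 and 31.8 in mice labelled obese, and 24.8, 33.3 and 26.0 in mice labelled nonobese. Every mouse labelled obese was below every AAV-GFP mouse, although replicate 3 labelled obese (31.83) and AAV-GFP replicate 1 (31.91) were nearly level. The log2 FC of obese versus AAV-GFP was -1.14 (SE 0.41, limma FDR 0.317, exact permutation p = 0.1). Over all 6 AAV-Cre mice it was -0.81 (SE 0.38, limma FDR 0.999), with an exact 2-sided permutation p of 0.0476, where 6 mice against 3 can reach 0.0119. Its exons overlap those of Gm15966 on the opposite strand.

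Pdgfra (ENSMUSG00000029231, chromosome 5 from 75152292 to 75198215, plus strand), the growth factor receptor of precursors, was the member with the least spread in AAV-GFP mice, at 70.1, 68.2 and 75.9. Signal was 36.2, 78.1 and 47.4 in mice labelled obese and 66.5, 54.2 and 57.6 in mice labelled nonobese. Replicate 2 labelled obese, which had the lowest Mobp, Mag, Mog and Cldn11, had the highest Pdgfra of all 9 libraries. Every mouse labelled nonobese was below every AAV-GFP mouse, as were 5.15% of all entries tested, with a log2 FC of -0.26 (SE 0.28, limma FDR 0.999, exact permutation p = 0.1). For obese versus AAV-GFP the log2 FC was -0.47 (interval -1.05 to 0.11), and for nonobese versus obese it was 0.21 (interval -0.38 to 0.79). Its exons overlap Gm42802 and Gm42803 on the opposite strand. Pdgfra is also transcribed by perivascular fibroblasts. Of 5 fibroblast genes with an entry, limma called 0 (2 had an unadjusted p under 0.05 for nonobese versus obese, and DESeq2 called 1, Col1a2, there), and their summed signal was 32.4 to 53.6 in AAV-GFP mice, 30.4 to 75.6 in mice labelled obese and 16.5 to 43.6 in mice labelled nonobese.

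Considered together, 0 of the 9 members passed an FDR of 0.1 in any comparison with limma, which called 0.555% of 13506 entries tested for obese versus AAV-GFP, 0.0148% for nonobese versus AAV-GFP, 0.0222% for all AAV-Cre versus AAV-GFP and 0.948% for nonobese versus obese. DESeq2 and the edgeR likelihood ratio test each called 1, Mbp, for nonobese versus obese, and the edgeR quasi-likelihood test 0. At an unadjusted p under 0.05 there were 5 members for obese versus AAV-GFP (Mbp, Mobp, Mog, Cldn11 and Olig1, all lower), where 9.88% of all entries had such a p. There were 0 for nonobese versus AAV-GFP (2.27% of entries) and 1, Olig1, for all AAV-Cre mice (3.14%). For nonobese versus obese there were 3 (Mbp, Mobp and Cldn11, all higher), beside 11.4% of entries. With mice labelled obese versus AAV-GFP, 8 of 9 log2 FCs were below 0 and their median was -0.60, against -0.04 over all entries. The median was 0.09 for nonobese versus AAV-GFP (-0.02 over all entries), -0.37 for all AAV-Cre mice (-0.03) and 0.80 for nonobese versus obese (0.02), where all 9 were above 0. Groups did not overlap for 2 members, both lower, in obese versus AAV-GFP (7.27% of entries were lower without overlap) and for 1 member, Mbp, in nonobese versus obese (6.61% were higher without overlap). Members are not independent of each other, and the comparisons share mice, AAV-GFP mice for the first 3 and mice labelled obese for all but nonobese versus AAV-GFP.

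The members' levels also varied from mouse to mouse within groups. The summed signal of the 7 mature genes was 644, 748 and 1077 in AAV-GFP mice, 641, 486 and 685 in mice labelled obese, and 1395, 602 and 1019 in mice labelled nonobese. Replicate 2 labelled obese had the lowest sum and replicate 1 labelled nonobese the highest. The ratio of the highest to the lowest library was 2.85 for Mbp, 2.31 for Cnp and 2.16 for Pdgfra, and it was 12.3 for Mag and 9.86 for Cldn11. Mbp made up 40.4% to 60.6% of the sum. In replicate 2 labelled obese, Mbp held the highest share, 60.6%, while Mag held 0.841% and Cldn11 0.654%, against 2.35% to 5.39% and 1.15% to 3.61% in the other 8 libraries.

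By Pearson's r, Mobp and Mal followed Mbp most closely over the 9 libraries. Pearson's r of log2(signal + 1) with Mbp was 0.83 for Mobp (permutation p = 0.00553, 0.0274 after Benjamini-Hochberg adjustment over 8 relations) and 0.82 for Mal (permutation p = 0.00686, adjusted 0.0274). Spearman's rho was 0.68 and 0.78 (permutation p = 0.0511 and 0.0176, each 0.118 after adjustment). Without AAV-GFP replicate 3 and replicate 1 labelled nonobese, the mice farthest from the median of Mbp, r was 0.61 and 0.47, so the relations rested in part on those mice. Among the 6 AAV-Cre mice alone r was 0.83 and 0.85. For Cnp, Mag, Mog, Cldn11, Olig1 and Pdgfra r lay between 0.40 and 0.56, with adjusted permutation p of 0.276 to 0.297. Their rho was 0.27 to 0.67, with Mag and Cldn11 (0.67 each, adjusted permutation p = 0.118) close to Mobp. Without the mice farthest from the median of Mbp, their r was 0.13 to 0.50. Olig1 (0.50) and Cldn11 (0.48) were then slightly above Mal, so the order of the members was not firm.

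**Figure D3:**
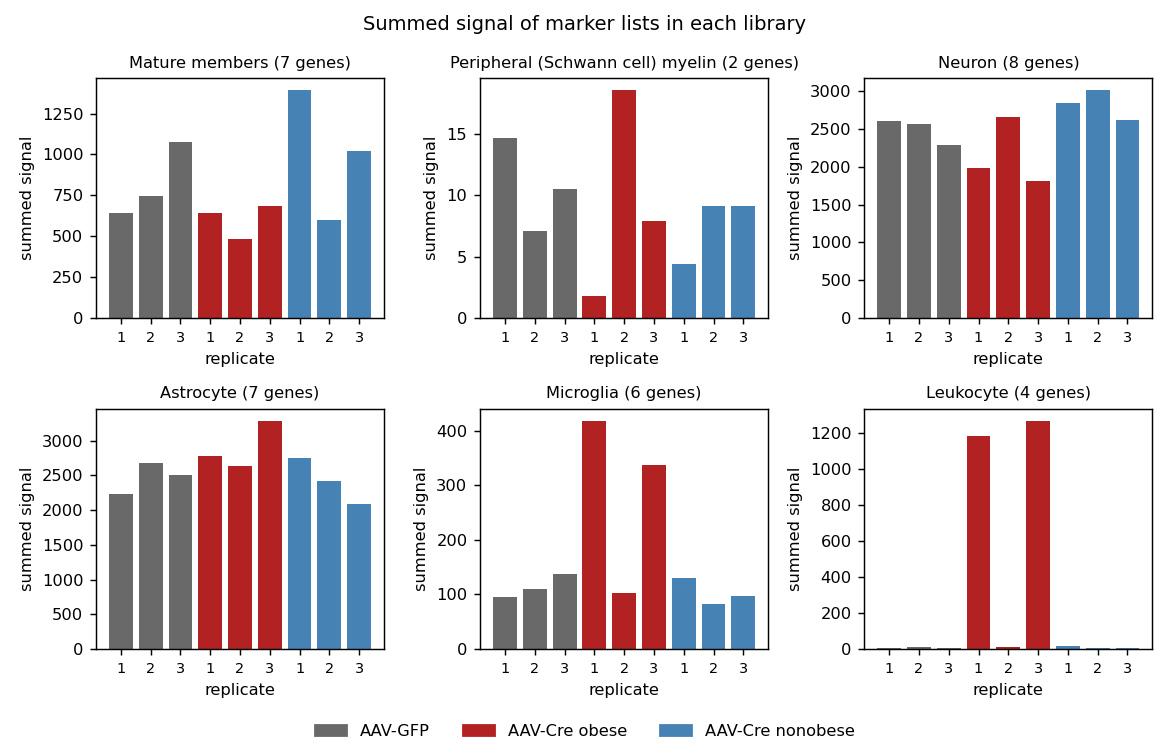
Summed signal of marker lists (vertical axes, linear from 0) in each library, with replicate numbers on the horizontal axes and bars coloured by group. Leukocyte and microglial sums were high in replicates 1 and 3 labelled obese, and the sum of the 7 mature members was lowest in replicate 2 labelled obese (486).

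Markers of other cells moved between the same libraries. Of 3 leukocyte genes tested, Cd74, an antigen presentation gene, was called in obese versus AAV-GFP with a log2 FC of 5.82 (limma FDR 0.0117). Gfap and Aqp4, which astrocytes use, were called as well (log2 FC 3.03 and 1.19), out of 7 astrocyte genes. Of these 7, 5 log2 FCs were above 0 and 2 below, with a median of 0.22 (-0.04 over all entries). The most abundant astrocyte gene, Slc1a2, had a mean signal of 1359 in mice labelled obese and 1462 in AAV-GFP mice. The calls of Cd74, Gfap and Aqp4 were lost without replicate 1 or without replicate 3 labelled obese. That of Aqp4 was also lost without AAV-GFP replicate 1 or 3, and that of Cd74 without AAV-GFP replicate 1. Without both leukocyte-rich libraries the log2 FCs of Cd74, Gfap and Aqp4 were 1.32, 1.76 and 0.38 (limma FDR 0.687, 0.384 and 0.676), and with only the libraries that had Nr5a1 reads they were 1.23, 0.87 and 0.28 (limma FDR 0.819, 0.644 and 0.845). The microglial sum was 418 and 337 in replicates 1 and 3 labelled obese and 82.8 to 138 elsewhere. The sum of 5 endothelial genes was 116 to 138 in mice labelled obese, 64.6 to 92.9 in AAV-GFP mice and 71.1 to 96.2 in mice labelled nonobese. Limma called 0 of these 5 for obese versus AAV-GFP and for nonobese versus obese, and 1 had an unadjusted p under 0.05 in each. Replicate 2 labelled obese, with a leukocyte sum of 13.2 and a microglial sum of 103, had the lowest sum of mature members. The sum of 8 neuronal genes was 2287 to 2599 in AAV-GFP mice, 1813 to 2661 in mice labelled obese and 2613 to 3016 in mice labelled nonobese, and limma, edgeR and DESeq2 called 0 of them, while 5 had an unadjusted limma p under 0.05 for nonobese versus obese and 2 for obese versus AAV-GFP. Of the markers of Schwann cells, which myelinate peripheral nerves, Egr2, Pmp2 and Ncmap had no entry, Pmp22 was at 1.12 to 14.2 and Prx at 0 to 8.85. When both libraries rich in leukocyte genes were left out, an alternative chosen after the data were seen, 1 mouse labelled obese remained, assumed to vary like the other groups. Then Mag and Mog were called lower in it than in AAV-GFP (log2 FC -2.77 and -4.003, limma FDR 0.0585 and 0.0491, beside 0.33% of all entries called), and Mobp, Mag, Mog and Cldn11 were called higher in mice labelled nonobese (log2 FC 1.47, 2.62, 3.50 and 2.71, beside 0.54% of entries). With only the 5 libraries that had Nr5a1 reads, 1 of them labelled obese, 0 members were called (0.0918% of entries for obese versus AAV-GFP and 0.00765% for nonobese versus obese) and 5 had an unadjusted p under 0.05 in each of these comparisons, as did 8.24% and 8.86% of all entries.

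Other genes of the lineage, in 5 lists, were measured for 52 genes beside the members. For obese versus AAV-GFP 0 were called higher and 1 lower, for nonobese versus AAV-GFP and for all AAV-Cre mice 0 were called, and for nonobese versus obese 1 was called higher and 1 lower (0.555% and 0.948% of all entries were called in the first and last of these). Of the 52, 9 were lower and 2 higher at an unadjusted p under 0.05 for obese versus AAV-GFP, and 8 were higher and 4 lower for nonobese versus obese, beside 9.88% and 11.4% of all entries in either direction. DESeq2 and both edgeR tests called Fa2h in the first comparison and in the last, and 0 lineage genes in the others, where limma had 1 each at an unadjusted p under 0.05. The medians of their log2 FCs were -0.06 and 0.34, against -0.04 and 0.02 over all entries.

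Of 9 further myelin membrane and junction genes, limma, edgeR and DESeq2 called 0 in any comparison. At an unadjusted limma p under 0.05, 1 was lower for obese versus AAV-GFP, and 2 were higher and 1 lower for nonobese versus obese. For obese versus AAV-GFP, 3 of the 9 log2 FCs were below 0 and 6 above, with a median of 0.09 (-0.04 over all entries). For nonobese versus obese, 3 were below 0 and 6 above, with a median of 0.68 (0.02 over all entries). Pllp, which encodes plasmolipin, a proteolipid of the myelin membrane, had a signal of 11.7, 12.3 and 14.2 in AAV-GFP mice, 6.52, 1.82 and 1.16 in mice labelled obese, and 10.7 to 14.1 in mice labelled nonobese. Every mouse labelled obese was below every other mouse, the order also seen for Mbp. Over all entries, 7.27% were lower without overlap for obese versus AAV-GFP and 6.61% higher without overlap for nonobese versus obese. The log2 FC of Pllp was -1.93 for obese versus AAV-GFP (SE 0.66, limma FDR 0.273) and 1.85 for nonobese versus obese (SE 0.66, limma FDR 0.251). The tetraspanin Cd9, which other cells also use, had a log2 FC of -1.50 for nonobese versus obese (limma FDR 0.383), with its highest signals, 35.1 and 80.2, in replicates 1 and 3 labelled obese. The most abundant gene of the list, Omg, a glycoprotein of oligodendrocytes and neurons, had a log2 FC of 0.68 for nonobese versus obese (limma FDR 0.420).

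Fa2h, the enzyme that hydroxylates fatty acids of myelin galactolipids, was called in both comparisons with mice labelled obese. It had 29, 56 and 147 reads in AAV-GFP mice, 0, 10 and 2 with the obese label, and 129, 68 and 65 in mice labelled nonobese. Mice labelled obese were thus near the floor of 3 reads and did not overlap the others. Of all entries, 7.27% were lower without overlap for obese versus AAV-GFP and 6.61% higher without overlap for nonobese versus obese. The log2 FC was -3.07 for obese versus AAV-GFP (SE 0.71, limma FDR 0.0563) and 3.48 for nonobese versus obese (SE 0.71, limma FDR 0.0204). The first call was lost without any AAV-GFP mouse, replicate 1 or 3 labelled obese or replicate 1 labelled nonobese (limma FDR up to 0.446), and the second without the last 3 of these (up to 0.146). Both were lost without the leukocyte-rich libraries (limma FDR 0.310 and 0.202), with only the libraries that had Nr5a1 reads (0.670 and 0.340) and without the variance trend, and the first also with a pseudocount of 0.1. Of the 6 lipid synthesis genes it was the only one called. The summed signal of the list was 37.6 to 40.0 in mice labelled obese, 49.9 to 75.7 in AAV-GFP mice and 50.03 to 103 in mice labelled nonobese, and its most abundant gene, the ceramide synthase Cers2, had a log2 FC of 0.18 for obese versus AAV-GFP (limma FDR 0.926).

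**Figure D4:**
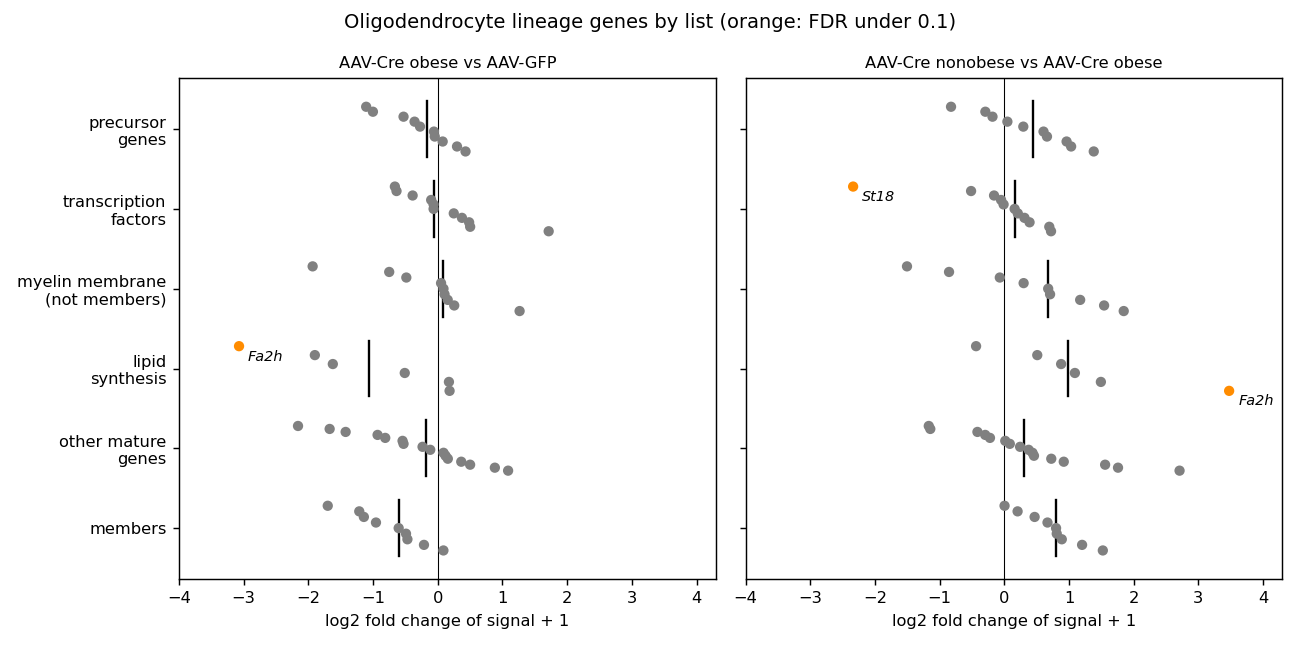
Log2 fold change of signal + 1 (horizontal axes) of each lineage gene, by list, for obese versus AAV-GFP (left) and nonobese versus obese (right). Points are genes, orange where the FDR was under 0.1, and vertical bars are list medians. Fa2h lies at -3.07 on the left, and Fa2h and St18 lie at 3.48 and -2.34 on the right.

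Of 11 lineage transcription factors, St18, a zinc finger factor, was called lower in mice labelled nonobese than obese. Its signal was 17.7, 10.3 and 24.9 in AAV-GFP mice, 45.9, 52.7 and 76.0 in mice labelled obese, and 35.2, 1.83 and 13.7 in mice labelled nonobese. The mice labelled obese were above all others, opposite to the order of Mbp. The share of all entries with that order was not counted. The log2 FC was -2.34 (SE 0.61, limma FDR 0.0931), and the call was lost without any of 6 mice, AAV-GFP replicates 1 and 3, replicates 1 and 3 labelled obese and replicates 2 and 3 labelled nonobese (limma FDR up to 0.357), without both leukocyte-rich libraries (limma FDR 0.367), and with only the libraries that had Nr5a1 reads (0.473). It was also lost with a pseudocount of 0.1, the filter at a signal of 5 and no variance trend, and neither edgeR test nor DESeq2 called St18 (FDR 0.305 with the quasi-likelihood test, 0.156 with the likelihood ratio test and 0.128 with DESeq2), so that 7 of 21 alternatives kept the call. Zfp488, the most abundant factor of the list, had a log2 FC of -0.66 for obese versus AAV-GFP (limma FDR 0.373).

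Among 10 precursor genes other than Pdgfra and 16 further genes of mature oligodendrocytes, 0 were called in any comparison with limma, edgeR or DESeq2. At an unadjusted limma p under 0.05 there were at most 1 and 5 in a comparison. Gpr17, a receptor of committed precursors, had a signal of 33.2, 37.3 and 54.8 in AAV-GFP mice, 20.2, 16.8 and 23.0 in mice labelled obese, and 29.0 to 71.0 in mice labelled nonobese. The mice labelled obese did not overlap the others, at a log2 FC of -1.003 versus AAV-GFP (limma FDR 0.341). Over all entries, 7.27% were lower without overlap for obese versus AAV-GFP and 6.61% higher without overlap for nonobese versus obese. For nonobese versus AAV-GFP, Bcas1, a gene of early myelinating cells, had a log2 FC of 0.74 (limma FDR 0.999). The lowest mouse labelled nonobese (50.3) and the highest AAV-GFP mouse (50.1) were nearly level. The most abundant precursor gene, the phosphatase Ptprz1, had log2 FCs of 0.30, 0.11 and -0.18 for obese versus AAV-GFP, nonobese versus AAV-GFP and nonobese versus obese. Of the mature genes, Hapln2, a matrix link protein of nodes of Ranvier, had a log2 FC of 2.71 for nonobese versus obese (limma FDR 0.134), with a signal of 0 to 5.11 in mice labelled obese and 13.0 to 15.2 in mice labelled nonobese. Ppp1r14a, an inhibitor of a protein phosphatase, had -2.16 for obese versus AAV-GFP (limma FDR 0.302), and the abundant Plekhb1 had 0.09 (limma FDR 0.927).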

How the data were processed

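RNA of laser-captured mediobasal hypothalamus was sequenced from 9 mice. Per the labels and the paper, reads were processed with CASAVA 1.7, TopHat2 2.0.11 (GRCm38), HTSeq, edgeR and limma by the authors. The deposited values are signal, which the authors made as reads per gene divided by a scaled library size. All values (100% in each library) were multiples of the signal of 1 read within a tolerance of 0.01, so the reads were recovered and totalled 3929672 to 5766994 per library (median 4611358). Replicates are separate mice, so p-values measure the spread between mice.

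On the log2(signal + 1) scale, limma 3.58.1 in R 4.3.3 was fitted with 3 groups sharing a mean-dependent variance trend. Entries were kept where 3 or more libraries reached a signal of 1, which left 13506, and FDR is the Benjamini-Hochberg value over these. All 9 members passed this filter. All AAV-Cre mice versus AAV-GFP used a fit with 2 groups. The threshold was an FDR of 0.1. Single members were also compared by exact permutation tests. On simulated data with 200 changed genes (obese versus AAV-GFP, 3 simulations), limma recovered 60.7% and 12.81% of its calls were false. The planted changes were 2-fold and larger, and of those of 2-fold limma recovered 23.3%, so on average a change of that size was mostly missed. That rate is an average over planted genes above a minimum expected read count. It was not worked out for single members, whose SEs differed. Alternatives were other pseudocounts, filters, centring, no trend, a replicate block, edgeR 4.0.16 and DESeq2 1.42.0 on recovered reads, each mouse left out, and 2 subsets of libraries added after the data were seen. Other genes named were, of each list, the most abundant gene, those with an FDR under 0.1 and, where none was called, those with the lowest p. The members and lists were chosen with earlier results of these data known. Some listed genes are not reported here and were left out of their lists and list counts, and the naming rule was applied to the rest. The design had been written for CPM-like values, and the same test was used for signal. Positions and exon lengths come from GENCODE M21 (GRCm38).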

Additional observations from a re-analysis of the deposited data

Results flagged for a closer look

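Mal stood out in replicate 1 labelled nonobese. Its signal there was 119, far above the other 5 AAV-Cre mice relative to their range, although AAV-GFP replicate 3 had 107. The 9 members were each examined in this way over all AAV-Cre mice, and chance flags about 1 in 20, or 0.45 in all.

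By the limma test of nonobese versus obese, the AAV-Cre groups differed for 2 lineage genes, St18 (log2 FC -2.34) and Fa2h (3.48). They also differed for markers of other cells, with log2 FCs of -1.11 for Aqp4, -3.39 for Gfap, -1.48 for Csf1r and -6.18 for Cd74. The calls of Aqp4, Gfap, Csf1r and Cd74 were lost without replicate 1 or without replicate 3 labelled obese, the libraries rich in leukocyte genes, and without the variance trend. Those of Aqp4 and Csf1r were also lost without AAV-GFP replicate 1 and replicates 2 and 3 labelled nonobese, and that of Aqp4 without replicate 1 labelled nonobese. Without both leukocyte-rich libraries the log2 FCs of Aqp4, Gfap, Csf1r and Cd74 were -0.30, -2.12, -0.43 and -1.69. With only the libraries that had Nr5a1 reads they were -0.14, -1.78, -0.28 and -1.60. All 4 calls were lost in both subsets, each of which held 1 mouse labelled obese.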

How the results depend on the processing

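Entries called with limma moved with the processing. For obese versus AAV-GFP (75, or 0.555% of entries tested) there were 34 (0.252%) and 143 (1.06%) with pseudocounts of 0.1 and 5, 5 (0.037%) without the variance trend, 260 (1.93%) with edgeR's likelihood ratio test, 275 (2.04%) with DESeq2, 44 (0.330%) without both leukocyte-rich libraries, of which 41 were lower against 18 of the 75, and 12 (0.0918%) with only the libraries that had Nr5a1 reads. When a mouse was left out they ranged from 8 (0.0594%, without AAV-GFP replicate 1) to 5.27% (without replicate 2 labelled obese). For nonobese versus obese (128, or 0.948%) they were, in that order, 70 (0.518%), 214 (1.58%), 15 (0.111%), 398 (2.95%), 389 (2.88%), 72 (0.540%), of which 71 were higher against 29 of the 128, and 1 (0.00765%), and from 2 (0.0149%, without replicate 1 labelled obese) to 906 (6.72%, without replicate 2 labelled obese). For nonobese versus AAV-GFP (2, or 0.0148%) a pseudocount of 0.1 gave 1 (0.0074%), the likelihood ratio test 6 (0.0444%) and leaving out a mouse 1 to 3 (0.00742% to 0.0223%). For all AAV-Cre mice (3, or 0.0222%) the likelihood ratio test gave 7 (0.0518%), DESeq2 9 (0.0667%) and leaving out a mouse 1 to 4 (0.00742% to 0.0297%). Members called stayed at 0 versus AAV-GFP, except 2 without both leukocyte-rich libraries in mice labelled obese. For nonobese versus obese 1 was called, Mbp, with a pseudocount of 5, centring, the likelihood ratio test and DESeq2, 4 without both leukocyte-rich libraries, and 0 to 2 when a mouse was left out (Mbp without replicate 2 labelled obese, Mbp and Mobp without replicate 2 labelled nonobese). Over 21 alternatives the FDR of Mbp was 0.0213 to 0.475. The causes were not tested.

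With the replicate block, 200 (1.48%), 3 (0.0222%), 3 (0.0222%) and 271 (2.01%) entries were called in obese versus AAV-GFP, nonobese versus AAV-GFP, all AAV-Cre versus AAV-GFP and nonobese versus obese, with 0, 0, 0 and 2 members (Mbp and Mobp). Same-numbered mice are different animals whose deviations correlated at -0.02 to 0.0897, against -0.088 to 0.040 for mice with other numbers. These ranges overlap. Of 9 libraries, 6 correlated best with a library of their own number. The design gives no pairing by number, and whether 6 exceeds chance was not tested.

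Of 36 member values, 22 kept their sign under all alternatives. In all AAV-Cre mice, the log2 FC of Mal turned to -0.015 with centring, -0.065 with edgeR's quasi-likelihood and likelihood ratio tests and -0.058 with DESeq2, and Cnp for nonobese versus obese to -0.015 with DESeq2. Without the leukocyte-rich libraries and with only Nr5a1-positive libraries, Mbp in all AAV-Cre mice turned to 0.12 and 0.25, Cnp in obese versus AAV-GFP to -0.41 and -0.27 and in all AAV-Cre mice to -0.035 and -0.043, and Pdgfra to 0.13 and 0.17 in obese versus AAV-GFP and to -0.39 and -0.37 in nonobese versus obese. When a mouse was left out, Cnp ranged from -0.19 to 0.34 (obese versus AAV-GFP), -0.078 to 0.42 (nonobese versus AAV-GFP), -0.020 to 0.23 (all AAV-Cre) and -0.25 to 0.33 (nonobese versus obese). Mal ranged from -0.70 to 0.22, -0.23 to 0.69 and -0.46 to 0.46 in the first 3, Mobp from -0.0098 to 0.68 (nonobese versus AAV-GFP) and -0.37 to 0.045 (all AAV-Cre), Mbp from -0.28 to 0.12 (all AAV-Cre), Mag from -0.44 to 0.38 (nonobese versus AAV-GFP) and -0.094 to 1.36 (nonobese versus obese), and Pdgfra from -0.039 to 0.50 (nonobese versus obese).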

Other observations

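Among 11886 entries with a mean signal of at least 5, those whose log2 signal followed the mean standardized level of the 7 mature members most closely over the 9 libraries were 1700020I14Rik (Pearson's r = 0.96), Nipsnap1 (0.95), 2900011O08Rik (0.94), Adssl1 (0.94), Ccdc74a (0.93), Erbb3 (0.93), Cpne9 (0.92), Aasdh (0.91), Gid8 (0.91) and Tuba1a (0.91). Of the genes in the lineage lists that are reported here, the nearest to that pattern were Plekhh1, at rank 11 (r = 0.91), and Tmem88b, at rank 51 (0.85). Entries outside those lists were not sorted by lineage. For Pdgfra the closest were Dmtn (0.97), Hspb11 (0.96), Dcun1d4 (0.96), Itih3 (0.95) and Pdzd4 (0.95), and the nearest gene of the lineage lists was Anln, at rank 554 (0.70). These are descriptions over 9 libraries that share scaling, picked as the highest of many. Batches of capture and library preparation are not given in the sources used here.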
